A study of Mus musculus with 10 samples.

Results

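The 10 genes followed here encode TNF, its receptors and relatives, and proteins through which these receptors keep a cell alive or kill it. They were taken from the gene count table by symbol, as 10 of its 55291 genes. Tnf and Tnfsf10 encode ligands. Tnfrsf1a, Tnfrsf1b, Tnfrsf10b, Tnfrsf12a and Fas encode receptors. Casp8, Ripk3 and Birc3 encode intracellular proteins. All 10 passed the filter on low counts.

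RNA of 10 livers was sequenced, each from a different female mouse 16 to 20 weeks old. All 10 carried a Cas9 allele held silent by a stop cassette until Cre removes it, and all received an AAV8 virus with a U6-driven guide and a Cre gene under TBG, a promoter active in hepatocytes. The NTC groups received a non-targeting guide and the sgBap1 groups a single guide against Bap1, a nuclear deubiquitinase. After 10 days the mice were injected intraperitoneally with olive oil alone (NTC-Veh, n = 2, and sgBap1-Veh, n = 2) or with carbon tetrachloride, CCl4, in olive oil (NTC-CCl4, n = 3, and sgBap1-CCl4, n = 3). Livers were taken 48 h later. CCl4 is a solvent that hepatocyte enzymes convert to a toxic radical. Editing was directed to hepatocytes, whereas the RNA came from a piece of the right lobe with all of its cell types, and in such bulk RNA fewer cells of a type and less RNA per cell cannot be told apart.

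Total estimated counts ranged from 33047904 to 52199904 per liver, so that 3 counts correspond to 0.0511 to 0.112 CPM (counts relative to the library total, with libraries scaled by TMM). With vehicle, Bap1 was at 34.8 and 34.8 CPM with the control guide and at 17.6 and 19.5 CPM with the Bap1 guide (log2 fold change -0.91, adjusted p = 0.0208), and its groups did not overlap with CCl4 either (-0.65, adjusted p = 0.0295). The vehicle call was lost with library-size scaling (adjusted p = 0.051), with the replicate number as a block (0.0744) and without each vehicle liver in turn (0.0577 to 0.12), and the CCl4 call with the same settings (0.0646 and 0.0552) and without 6 of the 10 livers in turn (0.0545 to 0.147), with fold changes of -0.84 to -0.99 and -0.57 to -0.67 in those fits. Hepatocyte markers were abundant in every liver. With vehicle their summed level was 128000 to 159000 CPM under the control guide and 115000 to 121000 CPM under the Bap1 guide, and with CCl4 it was 71400 to 81700 CPM and 65600 to 83800 CPM. The 8 markers of Kupffer cells and macrophages summed to 197 to 313, 409 to 615, 625 to 1080 and 619 to 843 CPM in the same order, and the 6 monocyte markers to 51.8 to 66.8, 101 to 121, 479 to 579 and 452 to 643 CPM. One library stood apart: sgBap1-CCl4 replicate 2 held adipocyte transcripts, with the 4 adipocyte markers summing to 216 CPM.

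TNF is a cytokine made mainly by macrophages and other immune cells, and TRAIL (Tnfsf10) is a related ligand that can kill sensitive cells. TNFR1 (Tnfrsf1a), the TRAIL receptor (Tnfrsf10b) and Fas carry a cytoplasmic death domain, through which they can recruit FADD and caspase-8 and start apoptosis, whereas TNFR2 (Tnfrsf1b) and Fn14 (Tnfrsf12a) lack it and signal through TRAF proteins. When caspase-8 is inactive, RIPK1 and RIPK3 can instead activate MLKL and rupture the cell, which is called necroptosis, and the ubiquitin ligase cIAP2 (Birc3) favours survival signalling through NF-kB. In the liver, TNF and Fas signalling are known for hepatocyte death in acute injury, and Fn14 for its induction in injured tissue.

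Promoter sequences are shown for members that kept their direction and call in both genotypes under every alternative (Tnf, Tnfrsf12a and Ripk3, higher after CCl4). Fas is shown as a receptor that was lower in both, though its calls were lost with library-size scaling. Tnfrsf10b also kept its rise and call under every alternative and is not shown. Each is the stretch of 250 bases before the RefSeq start of the gene (GRCm38.p6), written 5′ to 3′ on the strand of the gene. The Tnf window is chr17:35202008-35202257 (- strand), that of Tnfrsf12a chr17:23677450-23677699 (- strand), that of Ripk3 chr14:55788858-55789107 (- strand) and that of Fas chr19:34290409-34290658 (+ strand). Capitals mark the motif matches found.
Tnf: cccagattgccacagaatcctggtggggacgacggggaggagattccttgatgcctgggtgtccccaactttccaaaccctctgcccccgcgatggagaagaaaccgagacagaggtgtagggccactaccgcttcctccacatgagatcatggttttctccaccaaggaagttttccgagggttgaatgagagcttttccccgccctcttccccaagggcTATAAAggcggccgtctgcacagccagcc
Tnfrsf12a: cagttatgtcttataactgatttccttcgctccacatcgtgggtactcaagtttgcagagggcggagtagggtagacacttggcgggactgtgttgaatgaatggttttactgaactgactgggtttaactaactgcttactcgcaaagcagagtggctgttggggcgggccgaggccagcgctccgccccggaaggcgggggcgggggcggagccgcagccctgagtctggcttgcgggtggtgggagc
Ripk3: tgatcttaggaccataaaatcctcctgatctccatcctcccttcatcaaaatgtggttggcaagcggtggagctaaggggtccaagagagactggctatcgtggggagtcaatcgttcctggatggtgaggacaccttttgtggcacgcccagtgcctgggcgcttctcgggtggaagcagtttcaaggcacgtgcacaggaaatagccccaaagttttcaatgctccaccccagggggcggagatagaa
Fas: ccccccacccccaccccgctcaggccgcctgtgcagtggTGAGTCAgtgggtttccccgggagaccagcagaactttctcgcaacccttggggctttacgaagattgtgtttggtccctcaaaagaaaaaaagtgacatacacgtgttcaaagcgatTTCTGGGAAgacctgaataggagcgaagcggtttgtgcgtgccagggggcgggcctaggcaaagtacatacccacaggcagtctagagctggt

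The motifs named below were searched on both strands in these windows, for the 9 members with a RefSeq promoter entry and for all 32851 entries. The TATA box TATAAA occurred in 12.4% of all promoters and in 1 of the 9, Tnf, 29 bases before its start. The AP-1 site TGANTCA occurred in 6.75% of all and in 1 of the 9, Fas, at 211 bases. The interferon-responsive GAS element TTCNNNGAA occurred in 7.02% of all and in 3 of the 9, at 93 bases in Fas, 244 in Tnfrsf1a and 181 in Tnfrsf1b. The NF-kB consensus occurred in 7.25% of all and in 0 of the 9, which says only that these letters are not in these windows. The capitals in Fas are the AP-1 and GAS matches and those in Tnf the TATA box, while the windows of Tnfrsf12a and Ripk3 held none of the 4 motifs. These motifs can overlap other sites, and a match is a description of the letters.

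Positions are those of GRCm38 in GENCODE vM21. Tnf (ENSMUSG00000024401.14) spans chr17:35199381-35202007, - strand, Tnfsf10 chr3:27317028-27342427, + strand, Tnfrsf1a chr6:125349362-125362484, + strand, Tnfrsf1b chr4:145213463-145246870, - strand and Tnfrsf10b chr14:69767472-69784411, + strand. Tnfrsf12a spans chr17:23675445-23677468, - strand, Fas chr19:34290666-34327772, + strand, Casp8 chr1:58795374-58847503, + strand, Ripk3 chr14:55784995-55788865, - strand and Birc3 chr9:7848699-7873186, - strand. Counts of 4 members can include reads of near-identical sequence elsewhere, since 7.38% of the 50-base stretches of Birc3, 5.8% of Tnfrsf10b, 4.37% of Casp8 and 0.292% of Tnfsf10 recur in other genes. Fas and Casp8 overlap an unnamed gene model on the same strand, Gm27818 and Gm37760.

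Per kilobase of exon, TNFR1 was the most abundant member in vehicle livers. Its mean level was 38 CPM per kb in NTC-Veh livers, followed by Tnfrsf1b (14.8), Casp8 (12.2), Fas (9.67), Birc3 (3.35), Tnfrsf12a (2), Tnfsf10 (1.63), Ripk3 (0.688), Tnfrsf10b (0.513) and Tnf (0.117). After CCl4 the Fn14 receptor stood beside TNFR1, at 38.1 against 45.3 CPM per kb in NTC-CCl4 and 45.4 against 45.8 in sgBap1-CCl4 livers. Tnf was last in NTC-Veh livers and remained low after CCl4, at 1.27 and 0.964 CPM per kb in NTC-CCl4 and sgBap1-CCl4 livers. It was then no longer last. In NTC-CCl4 livers Tnfrsf10b (1.13) and Tnfsf10 (1.02) were lower, and in sgBap1-CCl4 livers Tnfsf10 (0.538) was. Neighbours in this order were not tested against each other.

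**Figure D1:**
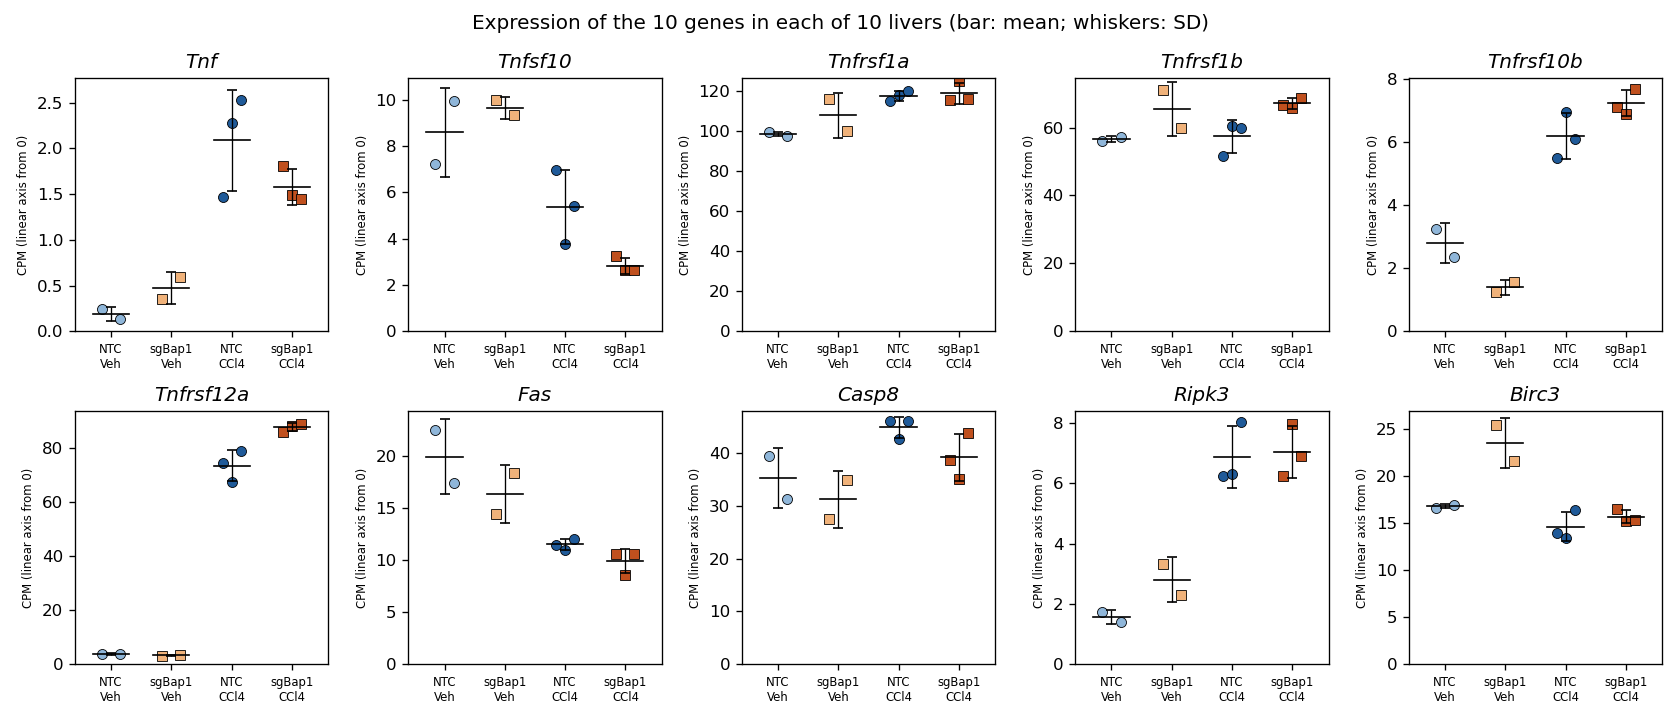
CPM of the 10 genes (y axis, linear from 0) in each of the 10 livers, with 1 panel per gene, circles for NTC and squares for sgBap1 livers, the mean as a bar and the SD as whiskers. Tnfrsf12a rises from 3.23 to 4.03 CPM with vehicle to 67.3 to 89 CPM with CCl4, and Fas and Tnfsf10 are lower with CCl4 in both genotypes.

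The first question was how the family answered CCl4 in livers with the control guide and in livers edited at Bap1. In NTC livers 5 of the 10 genes rose and 2 fell (adjusted p under 0.05), where 53.9% of the 17015 tested genes changed, 27.4% up and 26.6% down. In sgBap1 livers 4 rose and 3 fell, where 57% of all tested genes changed, 29% up and 28% down. Library-size scaling, without TMM, gave 7 up and 0 down in NTC and 7 up and 1 down in sgBap1 livers. The levels of 9 of the 10 genes did not overlap between NTC-CCl4 and NTC-Veh livers, 6 of them higher and 3 lower with CCl4, as was the case for 71.7% of all genes (36.7% higher and 35% lower). In sgBap1 livers this held for 8 of the 10, 5 higher and 3 lower, against 72.2% of all genes (37.3% higher and 34.9% lower). The median log2 fold change of the 10 was 0.3 in NTC and 0.23 in sgBap1 livers, against 0.03 and 0.04 over all genes. Without sgBap1-CCl4 replicate 2, 8 of the 10 changed in each genotype, Casp8 being added.

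Of the ligands, Tnf rose and Tnfsf10 fell. Tnf was at 0.245 and 0.139 CPM in the NTC-Veh group, 0.35 and 0.599 in sgBap1-Veh, 1.47, 2.27 and 2.52 in NTC-CCl4 and 1.8, 1.49 and 1.45 in sgBap1-CCl4 livers. Every CCl4 liver exceeded every vehicle liver, and the lowest vehicle value was close to the level of 3 counts. The log2 fold change was 3.42 ± 0.42 (SE, adjusted p = 7.5e-05) in NTC and 1.78 ± 0.37 (adjusted p = 0.00211) in sgBap1 livers. TRAIL (Tnfsf10) moved the other way, from 7.22 and 9.95 CPM in the NTC-Veh group, 9.98 and 9.32 in sgBap1-Veh livers, to 6.97, 3.78 and 5.41 in NTC-CCl4 and 3.24, 2.64 and 2.64 in sgBap1-CCl4 livers. Its fall was -1.77 ± 0.24 on the log2 scale (adjusted p = 0.00014) in sgBap1 livers. In NTC livers it was -0.67 ± 0.24 (adjusted p = 0.0328), and this call was lost without NTC-Veh replicate 2 (-0.42, adjusted p = 0.279), without NTC-CCl4 replicate 2 (-0.47, adjusted p = 0.0791) or without NTC-CCl4 replicate 3 (adjusted p = 0.0707), and with scaling by library size alone (-0.21, adjusted p = 0.488).

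The Fn14 receptor showed the largest change of the 10 genes in both genotypes. Tnfrsf12a was at 4.03 and 3.71 CPM in the NTC-Veh livers, at 3.23 and 3.56 in the sgBap1-Veh livers, and at 74.4, 67.3 and 78.9 CPM in NTC-CCl4 and 86.1, 88.2 and 89 in sgBap1-CCl4 livers. The fitted rise was 19-fold in NTC (log2 4.25 ± 0.11, adjusted p = 1.75e-08) and 25.9-fold in sgBap1 livers (4.7 ± 0.11, adjusted p = 8.63e-09). Its ligand TWEAK (Tnfsf12) was at 12.8 to 15.1 CPM in NTC-Veh and 14.8 to 16.1 in NTC-CCl4 livers, which overlapped (log2 0.16, adjusted p = 0.216). In sgBap1 livers Tnfsf12 went from 9.2 and 10.1 to between 12.7 and 13.7 CPM (0.45 ± 0.11, adjusted p = 0.00447). TWEAK reads are uncertain, since 46.8% of the 50-base stretches of Tnfsf12 are shared with the readthrough gene Tnfsfm13.

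The TRAIL receptor also rose in both genotypes, opposite in direction to its ligand. Tnfrsf10b was at 3.24 and 2.36 CPM in the NTC-Veh group, 1.24 and 1.57 in sgBap1-Veh, 5.5, 6.95 and 6.09 in NTC-CCl4 and 7.12, 6.9 and 7.7 in sgBap1-CCl4 livers. The vehicle livers lay in separate ranges by genotype, and the CCl4 livers overlapped. The log2 fold change was 1.14 ± 0.18 (adjusted p = 0.000453) in NTC and 2.38 ± 0.21 (adjusted p = 8e-06) in sgBap1 livers. Divided by its ligand within each liver, the receptor stood at 0.449 and 0.237 CPM per CPM of Tnfsf10 in NTC-Veh, 0.124 and 0.169 in sgBap1-Veh, 0.789, 1.84 and 1.13 in NTC-CCl4 and 2.2, 2.62 and 2.92 in sgBap1-CCl4 livers. The 4 groups did not overlap in this ratio, which was chosen after the values were seen and was given no test. The ratio of Tnfrsf12a to Tnfsf12, chosen in the same way, was 0.267 to 0.353 with vehicle, and with CCl4 it was 4.17 to 5.32 in NTC and 6.29 to 7.03 in sgBap1 livers.

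**Figure D2:**
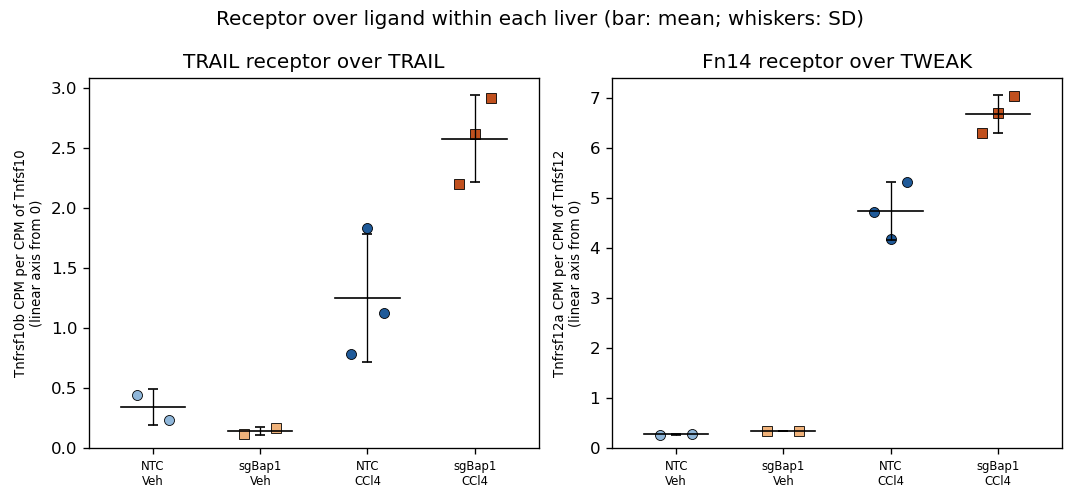
Receptor CPM per CPM of its ligand (y axis, linear from 0) in each liver, for Tnfrsf10b over Tnfsf10 and for Tnfrsf12a over Tnfsf12, with the mean as a bar and the SD as whiskers. The sgBap1-CCl4 livers sit highest in both panels, at 2.2 to 2.92 and at 6.29 to 7.03.

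The other receptors, Fas, TNFR1 and TNFR2, differed from these. Fas was at 22.5 and 17.4 CPM in the NTC-Veh group, 14.4 and 18.3 in sgBap1-Veh, 11.5, 11 and 12.1 in NTC-CCl4 and 10.6, 8.59 and 10.6 in sgBap1-CCl4 livers. All 6 CCl4 livers lay below all 4 vehicle livers, with log2 fold changes of -0.79 ± 0.15 (adjusted p = 0.00118) in NTC and -0.72 ± 0.15 (adjusted p = 0.00221) in sgBap1 livers. With scaling by library size alone, under which the median of all genes rises by 0.5 and 0.52, these became -0.31 (adjusted p = 0.055) and -0.24 (adjusted p = 0.127). Its ligand Fasl was between 0 and 0.384 CPM in all livers. Its vehicle and CCl4 livers overlapped in NTC (log2 0.98, adjusted p = 0.309) and in sgBap1 livers (-0.53, adjusted p = 0.541), and the NTC difference passed only without NTC-Veh replicate 1 (adjusted p = 0.0194), which leaves a single NTC-Veh liver, at 0 counts. TNFR1 (Tnfrsf1a) was at 99.3 and 97.7 CPM in NTC-Veh and 114.7, 117.7 and 119.7 in NTC-CCl4 livers (log2 0.25 ± 0.09, adjusted p = 0.0337). This small call was lost without any 1 of the 5 NTC livers (adjusted p = 0.0567 to 0.136). In sgBap1 livers Tnfrsf1a overlapped, with 116 and 99.9 CPM in sgBap1-Veh and 115, 125 and 116 in sgBap1-CCl4 (0.14 ± 0.09, adjusted p = 0.207), though it passed with scaling by library size alone (0.62, adjusted p = 0.000841). TNFR2 (Tnfrsf1b) was between 51.7 and 71.1 CPM in all livers and its vehicle and CCl4 groups overlapped, with log2 fold changes of 0.02 ± 0.1 and 0.04 ± 0.1 in NTC and sgBap1 livers (adjusted p = 0.893 and 0.78). With scaling by library size alone these became 0.49 and 0.51, close to the shift of all genes.

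Among the intracellular proteins, RIPK3 stood out. Ripk3 was at 1.74 and 1.41 CPM in the NTC-Veh group, 3.34 and 2.28 in sgBap1-Veh, 6.25, 6.29 and 8.04 in NTC-CCl4 and 6.25, 7.96 and 6.89 in sgBap1-CCl4 livers. It rose by 2.11 ± 0.23 on the log2 scale in NTC (adjusted p = 3.1e-05) and by 1.31 ± 0.21 in sgBap1 livers (adjusted p = 0.000438). Its partner kinase Ripk1 was between 28.6 and 32.2 CPM in every liver, with log2 fold changes of 0.01 and 0.03 (adjusted p = 0.933 and 0.785), whose sign varied over the alternatives. With scaling by library size alone Ripk1 passed, at 0.48 and 0.51 (adjusted p = 0.00196 and 0.00138), close to the shift of all genes. Mlkl, the necroptosis effector that RIPK3 phosphorylates, was at 6.32 to 9.06 CPM with vehicle and 14.7 to 22.1 with CCl4, and rose by 1.49 ± 0.16 in NTC and 0.86 ± 0.15 in sgBap1 livers (adjusted p = 2.93e-05 and 0.000873).

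Caspase-8 was higher after CCl4 without reaching the threshold. Casp8 was at 39.3 and 31.3 CPM in the NTC-Veh group, 27.4 and 34.9 in sgBap1-Veh, 45.9, 42.5 and 45.9 in NTC-CCl4 and 38.7, 35 and 43.7 in sgBap1-CCl4 livers. The groups did not overlap by narrow margins, and the log2 fold changes were 0.34 ± 0.14 and 0.33 ± 0.14 (adjusted p = 0.0562 and 0.0638). Fits without a vehicle liver leave 1 liver in a group, and for Casp8 only their fold changes are given. Without NTC-Veh replicate 1 the NTC value was 0.52, and it was 0.35 without either sgBap1-Veh liver. Without sgBap1-Veh replicate 2 the sgBap1 value was 0.51. Among the fits without 1 CCl4 liver, the NTC change passed without sgBap1-CCl4 replicate 2 (adjusted p = 0.043) or replicate 3 (adjusted p = 0.0487). Among the same fits, the sgBap1 change passed without sgBap1-CCl4 replicate 2 (0.41, adjusted p = 0.0346). The sgBap1 change also passed without the filter (adjusted p = 0.0486). Its inhibitor c-FLIP (Cflar) had log2 fold changes of -0.42 in NTC (adjusted p = 0.0436) and -0.25 in sgBap1 livers (adjusted p = 0.206), and both became positive with scaling by library size alone. The NTC call was also lost without the filter (adjusted p = 0.0539) and without NTC-Veh replicate 1 or 2, NTC-CCl4 replicate 1 or 2 or sgBap1-CCl4 replicate 3 (adjusted p = 0.0571 to 0.168). The ubiquitin ligase gene Birc3 was at 16.7 and 16.9 CPM in the NTC-Veh group, 25.4 and 21.6 in sgBap1-Veh, 14, 13.5 and 16.4 in NTC-CCl4 and 16.5, 15.3 and 15.3 in sgBap1-CCl4 livers. The 2 sgBap1-Veh livers held the highest values, and Birc3 fell after CCl4 in sgBap1 livers (-0.58 ± 0.11, adjusted p = 0.00116) but not past the threshold in NTC livers (-0.2 ± 0.11, adjusted p = 0.152). With scaling by library size alone these were -0.11 (adjusted p = 0.494) and 0.27 (adjusted p = 0.0972), and the difference between the genotypes' responses was -0.38 (adjusted p = 0.433).

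**Figure D3:**
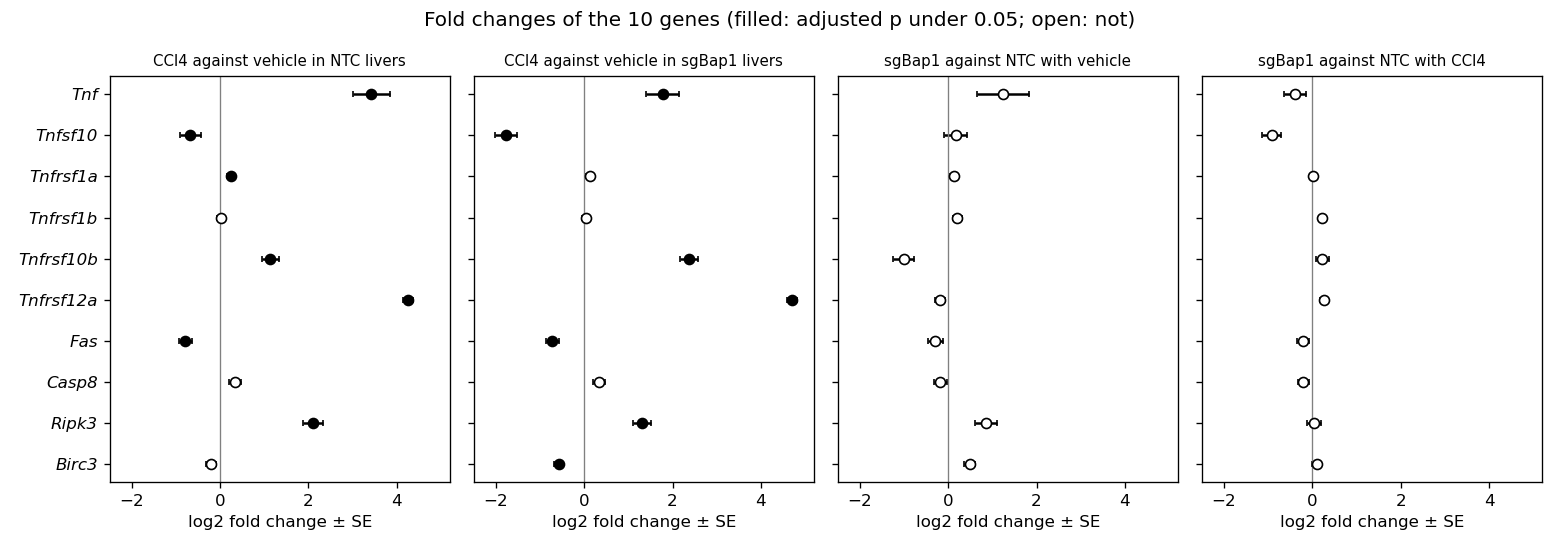
Log2 fold change with its SE (x axis) for the 10 genes (y axis) in the 4 pairwise comparisons, filled where the adjusted p was under 0.05. The filled points lie in the 2 CCl4 comparisons, 7 of 10 in each, and no point is filled in the genotype comparisons.

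Around the 10 genes, 113 of 120 listed genes of the same pathways could be tested. After CCl4, 57 rose and 18 fell in NTC livers and 52 rose and 20 fell in sgBap1 livers, where over all genes 27.4% rose and 26.6% fell in NTC and 29% and 28% in sgBap1 livers. Library-size scaling gave splits of 83 and 4 in NTC and 76 and 7 in sgBap1 livers. Their median log2 fold changes were 0.54 and 0.37, unchanged with the 1 gene that was at 0 in all vehicle livers set to its lower bound, against 0.03 and 0.04 over all genes. Of 21 receptor genes of the TNF superfamily, 13 rose and 1 fell in NTC, and 11 rose and 1 fell in sgBap1 livers. Tnfrsf23, which encodes a decoy TRAIL receptor, was between 0.599 and 1.18 CPM with vehicle, and with CCl4 it was 11.2 to 16.5 CPM in NTC and 23.8 to 43.4 CPM in sgBap1 livers. Its fitted rise was 22.7-fold in NTC and 37.2-fold in sgBap1 livers (adjusted p = 1.49e-05 and 5.56e-06), with 18% of its 50-base stretches shared with Tnfrsf22. Tnfrsf11a, the receptor RANK, rose by 2.83 ± 0.23 and 2.4 ± 0.23 on the log2 scale (adjusted p = 6.83e-06 and 1.39e-05). Tnfrsf19 fell by 2.41 ± 0.24 and by 3.08 ± 0.26 (adjusted p = 2.13e-05 and 7.28e-06), from 10.4 to 20 CPM with vehicle to 1.09 to 3.9 CPM with CCl4.

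Of 10 ligand genes tested, 6 in NTC and 4 in sgBap1 livers had an unadjusted p under 0.05, against 59.1% and 61.7% of all genes. Past the adjusted threshold 5 rose in NTC and 4 in sgBap1 livers, and none fell in the test used. Without NTC-Veh replicate 2 the NTC count was 3. Tnfsf13, the B-cell ligand APRIL, rose by 1.8 ± 0.37 and 1.73 ± 0.37 (adjusted p = 0.00196 and 0.00269), though 57.3% of its 50-base stretches are shared with Tnfsfm13. Of 19 NF-kB subunits and target genes, 15 rose and 2 fell in NTC, and 15 rose and 1 fell in sgBap1 livers. The chemokine gene Ccl2 rose by 4.7 ± 0.54 and 3.46 ± 0.49 (adjusted p = 0.000141 and 0.000427) and the stress-response gene Ier3 by 3.69 ± 0.18 and 4.58 ± 0.18 (adjusted p = 6.64e-07 and 2.91e-07). Nfkbia, the NF-kB inhibitor, was among the genes that fell in NTC livers (-0.39, adjusted p = 0.00245). In sgBap1 livers it was at -0.14 (adjusted p = 0.18), and with scaling by library size alone it turned positive in both (0.08 and 0.34).

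Of 28 genes of TNF release and receptor signalling, 9 rose and 5 fell in NTC, and 10 rose and 7 fell in sgBap1 livers. Under library-size scaling the splits were 22 and 0 in NTC and 18 and 1 in sgBap1 livers. Tnfaip3, which encodes the feedback inhibitor A20, rose by 1.57 ± 0.24 and 1.34 ± 0.24 (adjusted p = 0.00034 and 0.000759). Traf1 rose by 1.81 ± 0.23 and 0.75 ± 0.21 (adjusted p = 9.31e-05 and 0.0112), the sgBap1 call being lost without sgBap1-Veh replicate 1 (0.68, adjusted p = 0.0814). Rhbdf1, which encodes a cofactor of the TNF-releasing protease, rose by 1.41 ± 0.11 and 1.52 ± 0.12 (adjusted p = 6.44e-06 and 3.88e-06). Of 27 caspase and BCL2 family genes, 9 rose and 9 fell in each genotype, and with scaling by library size alone 13 rose and 2 fell in NTC and 14 rose and 4 fell in sgBap1 livers. Over all genes the shares were also near even. The BH3-only gene Bmf fell by 2.36 ± 0.22 and by 2.07 ± 0.22 (adjusted p = 1.29e-05 and 3.08e-05). Pmaip1, which encodes the BH3-only protein NOXA, rose by 1.87 ± 0.27 and 1.43 ± 0.26 (adjusted p = 0.00023 and 0.000876), and Apaf1, the scaffold of the apoptosome, by 1.62 ± 0.15 in each (adjusted p = 1.51e-05 and 1.41e-05).

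Of 8 genes of necroptosis and pyroptosis besides Ripk3, 6 rose and 1 fell in NTC livers, and 3 rose and 2 fell in sgBap1 livers. The 5 sgBap1 calls became 2 without sgBap1-Veh replicate 1, 3 without any 1 of the sgBap1-CCl4 livers, 3 without the filter and 3 with the replicate block. Library-size scaling gave 7 up and 0 down in each genotype. Zbp1, a nucleic acid sensor upstream of RIPK3, was at 16 to 30 CPM with vehicle, and with CCl4 it was at 51.2 to 84.8 CPM in NTC and 36.3 to 52 CPM in sgBap1 livers. It rose by 1.79 ± 0.29 and 0.81 ± 0.28 (adjusted p = 0.000789 and 0.0326). Its sgBap1 call was lost without sgBap1-Veh replicate 1 (0.6, adjusted p = 0.203), without sgBap1-CCl4 replicate 1 or 3 (adjusted p = 0.0834 and 0.0762) and without the filter (adjusted p = 0.0581). Casp1, the inflammatory caspase, rose by 1.55 ± 0.2 in NTC (adjusted p = 0.000108) and was at 0.34 ± 0.19 in sgBap1 livers (adjusted p = 0.153). The fitted interaction of the 8 genes was negative in every case (-0.07 to -1.22, median -0.68), but 0 of 8 passed the adjusted threshold with edgeR. Of the 8, 5 had an unadjusted p under 0.05, against 10.4% of all genes. DESeq2 called 2, against 424 of the 17015 genes. The interaction was likewise negative for all 8 macrophage markers (median -1.24, 7 with an unadjusted p under 0.05), all 8 T and NK cell markers (median -1.17, 3) and all 4 B cell markers (median -1.01, 4). Other lists were mixed. It was positive for 7 of 8 hepatocyte, 4 of 6 stellate cell, 2 of 5 neutrophil and 2 of 4 bile duct markers. The same held for 1 of 6 monocyte and 1 of 5 sinusoidal endothelial markers. The part of these cell types in the values was not tested.

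**Figure D4:**
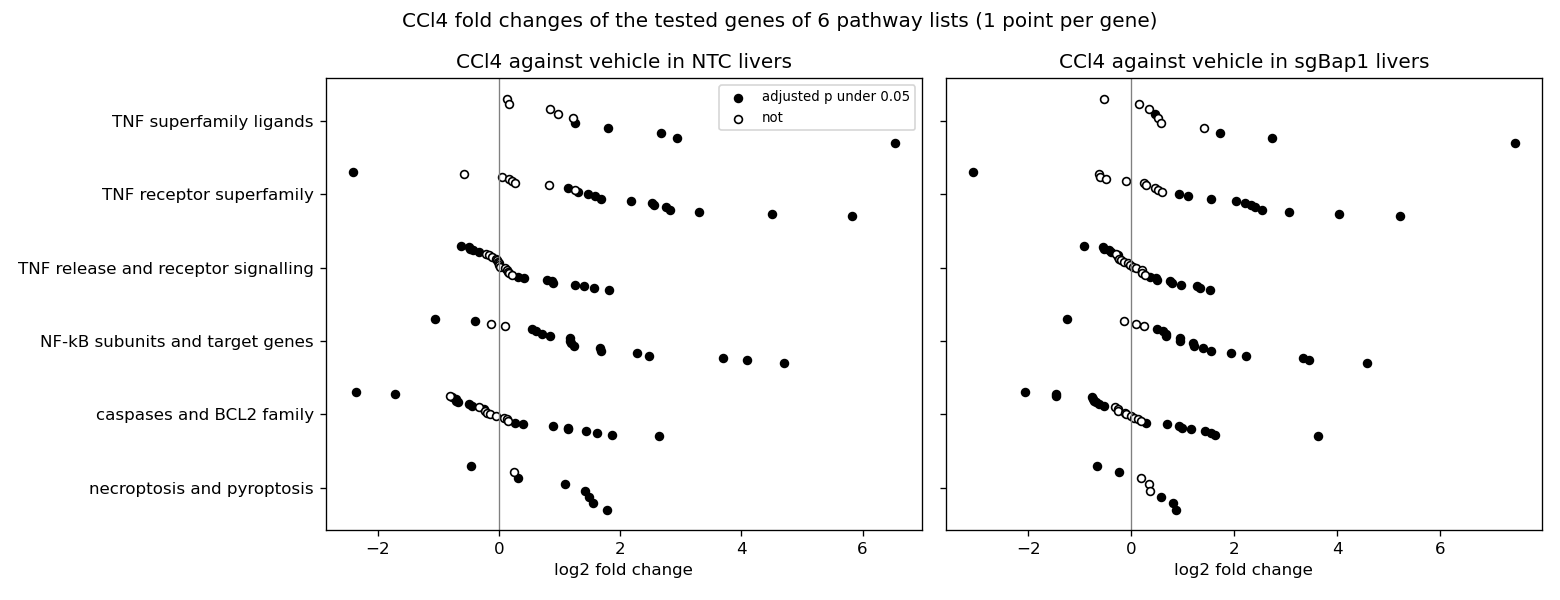
Log2 fold changes after CCl4 (x axis) of the tested genes of the 6 pathway lists (y axis), 1 point per gene, in NTC livers and in sgBap1 livers, filled where the adjusted p was under 0.05. NF-kB genes lie mostly to the right of 0, with 15 of 19 rising in each genotype, while caspases and the BCL2 family lie on both sides, with 9 up and 9 down.

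The second question was whether editing Bap1 changed the family with vehicle. None of the 10 genes passed the quasi-likelihood test, where 0.406% of all genes did. An unadjusted p under 0.05 was seen for 3 of them (12.3% of all genes). DESeq2 called 2 of the 10, and 562 of the 17015 genes. The 2 genotypes did not overlap for 7 of the 10, 5 of them higher and 2 lower in sgBap1-Veh livers, against 40.9% of all genes (21.7% higher and 19.2% lower). Tnfrsf10b was lower (log2 -1.01 ± 0.23, adjusted p = 0.0893 with edgeR and 0.0102 with DESeq2). Birc3 was higher (0.49 ± 0.12, adjusted p = 0.124 with edgeR and 0.0218 with DESeq2). Ripk3 was higher in both sgBap1-Veh livers (0.85 ± 0.25, adjusted p = 0.189 with edgeR), as was Tnf (1.24 ± 0.58, adjusted p = 0.422). Of the 113 pathway genes, only Vcam1, which encodes a cell adhesion molecule, passed. It was at 10.5 and 11.6 CPM with the control guide and at 25.2 and 21.3 CPM with the Bap1 guide (1.07 ± 0.17, adjusted p = 0.0385 with edgeR). This call was lost without 7 of the 10 livers in turn, each vehicle liver among them.

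The third question was whether the genotypes differed after CCl4. None of the 10 genes passed the quasi-likelihood test, where 0.329% of all genes did. An unadjusted p under 0.05 was seen for 3 of them (14% of all genes). DESeq2 called 1 of the 10, and 509 of the 17015 genes. The genotypes did not overlap for 4 of the 10, 2 higher and 2 lower in sgBap1-CCl4 livers, against 20.3% of all genes (10.1% higher and 10.2% lower). Tnfsf10 was the 1 of the 10 that DESeq2 called (log2 -0.92 ± 0.22, adjusted p = 0.115 with edgeR and 0.00762 with DESeq2). It was lower in all 3 sgBap1-CCl4 livers than in any NTC-CCl4 liver. Tnfrsf12a (0.26 ± 0.08, adjusted p = 0.185) and Tnfrsf1b (0.23 ± 0.09, adjusted p = 0.288) were higher in every sgBap1-CCl4 liver, and Fas was lower (-0.21 ± 0.13, adjusted p = 0.518). Of the 113 pathway genes 0 passed with edgeR, 29 had an unadjusted p under 0.05 and DESeq2 called 11.

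The response to CCl4 itself was then compared between the genotypes through the interaction. With edgeR 0 of the 10 genes passed, as did 0% of all genes, while 6 had an unadjusted p under 0.05 (10.4% of all genes). DESeq2 called 424 of the 17015 genes and 1 of the 10. That gene was Tnfrsf10b, whose rise was larger in sgBap1 livers by 1.23 ± 0.27 on the log2 scale (adjusted p = 0.128 with edgeR and 0.00987 with DESeq2). For Tnf the rise was smaller in sgBap1 livers (-1.64 ± 0.63, adjusted p = 0.392), for Ripk3 likewise (-0.81 ± 0.3, adjusted p = 0.382), and for Tnfsf10 the fall was deeper (-1.09 ± 0.34, adjusted p = 0.264). The interaction shares the sgBap1-Veh and NTC-Veh livers with the vehicle comparison. The values of a gene in the 2 comparisons, such as Tnf, Tnfrsf10b, Birc3 and Ripk3, are therefore not independent. For Tnf the vehicle difference was 1.24, and it rests on 5 to 16 counts per vehicle liver. Among the 113 pathway genes 0 passed with edgeR, 19 had an unadjusted p under 0.05 and DESeq2 called 5.

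Tnf and Ripk3 moved together with the summed level of macrophage and monocyte markers. The 14 markers of both lists summed to between 249 and 1660 CPM over the 10 livers. Abundant genes weigh most in this sum. In NTC-CCl4 replicate 1, Lyz2, Cd5l and Marco were at 367.8, 239.8 and 218.3 CPM, and the next marker, Csf1r, was at 84.7 CPM. All 6 monocyte markers rose after CCl4 in both genotypes, and 5 of 8 macrophage markers rose in NTC livers. In sgBap1 livers 3 of these 8 rose, and the resident Kupffer cell genes Clec4f and Timd4 fell. Other markers differed as well. The 5 tested neutrophil markers rose in both genotypes, their summed level being 5.76 to 10.8 CPM in the NTC-Veh and 9.39 to 12 in the sgBap1-Veh livers, and 27.9 to 37 and 31.2 to 39.1 CPM with CCl4. Stellate cell markers summed to 218 to 283 CPM with vehicle and 396 to 880 with CCl4. The value of 880 was that of sgBap1-CCl4 replicate 2, the library with adipocyte transcripts, and the other CCl4 livers reached at most 500. The hepatocyte sum was lower with CCl4. Ripk3 per 1000 CPM of the 14 macrophage and monocyte markers was 4.59 and 5.67 in NTC-Veh and 4.53 and 4.48 in sgBap1-Veh livers. With CCl4 it was 5.14, 5.44 and 4.85 in NTC-CCl4 and 5.44, 5.36 and 6.07 in sgBap1-CCl4 livers. The highest of these ratios was 1.35 times the lowest, while Ripk3 itself spanned 5.69-fold. Of 12014 genes compared, 8 (0.0666%) had as narrow a ratio. The ratio was looked at after the values were seen and carries no test, and it was wider over the macrophage list alone (1.86 times) or the monocyte list alone (2.33 times).

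Tnf followed the 14 markers together less closely. Per 1000 CPM of the 14 markers it was 0.645 and 0.556 in NTC-Veh, 0.475 and 1.18 in sgBap1-Veh, 1.21, 1.97 and 1.52 in NTC-CCl4 and 1.57, 1 and 1.27 in sgBap1-CCl4 livers, spanning 4.14 times. Vehicle and CCl4 livers overlapped in this ratio in the sgBap1 genotype and not in the NTC genotype. Over the monocyte list alone the highest Tnf ratio was 2.57 times the lowest, beside 2.33 times for Ripk3. Without sgBap1-CCl4 replicate 2 these were 2.23 and 2.33 times. Over the macrophage list alone the Tnf ratio spanned 6.39 times. Tnfrsf12a, which spanned 27.6-fold, still spanned 17.9 times after division by the 14 markers. The part of these cell types in the changes was not tested.

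**Figure D5:**
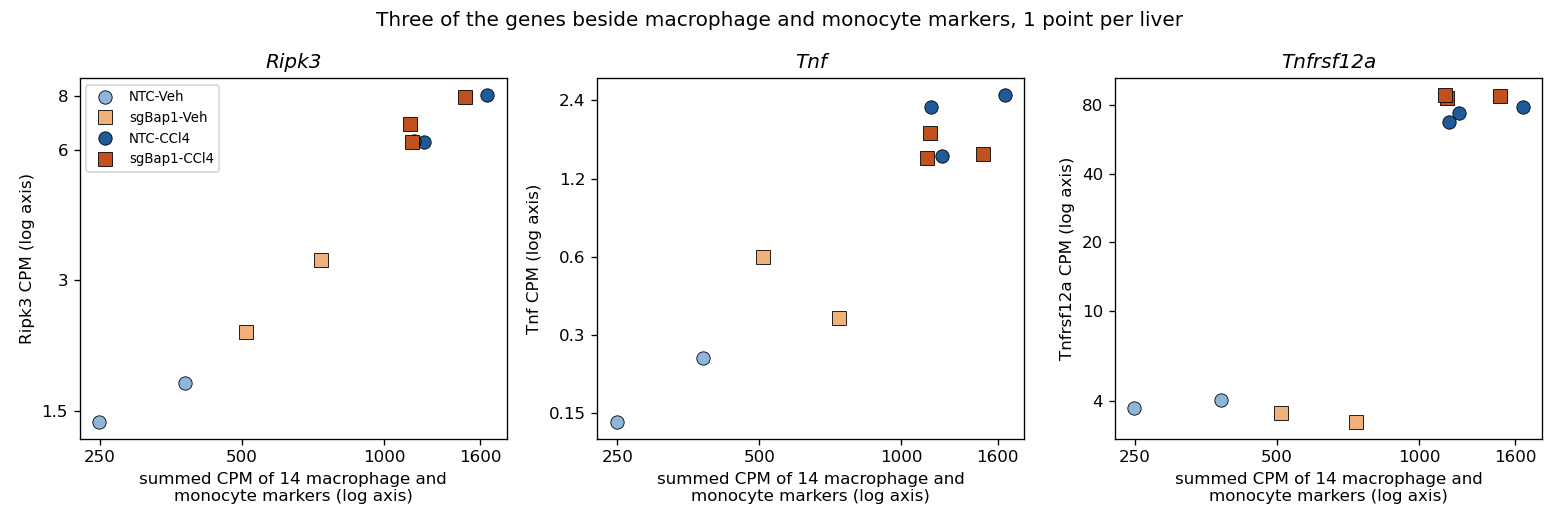
CPM of Ripk3, Tnf and Tnfrsf12a (y axes, log scale) against the summed CPM of 14 macrophage and monocyte markers (x axes, log scale), 1 point per liver, circles for NTC and squares for sgBap1. Ripk3 climbs with the markers over their whole range from 249 to 1660 CPM, whereas Tnfrsf12a stays at 3.23 to 4.03 CPM in the vehicle livers and at 67.3 to 89 CPM in the CCl4 livers.

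For the members other than Ripk3, the gene most like each over the 10 livers was found among 12019 genes by the root mean square difference of centred log2 CPM. It was Clec4a1, a myeloid lectin, for Tnf (0.3, where Tnf itself ranged over 4.06), Syt12 for Tnfrsf12a (0.19, range 4.78) and Smox, spermine oxidase, for Tnfrsf10b (0.17, range 2.62). For Tnfsf10 it was Olfml1 (0.2, range 1.92), for Fas Tpcn1 (0.08, range 1.39) and for Birc3 Map2k3 (0.11, range 0.92). Tnfrsf1a (U2af2, 0.05), Tnfrsf1b (Naa16, 0.06) and Casp8 (Shtn1, 0.08) varied little themselves, with ranges of 0.35, 0.46 and 0.74.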

How the data were processed

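Bulk RNA-seq of 10 mouse livers in 4 groups was analysed. Per the labels and methods, the authors sequenced TruSeq Stranded mRNA libraries as pairs of 50-base reads, aligned these to GRCm38 with STAR 2.7.6a and quantified genes with Salmon 1.4.0 on GENCODE vM25. The Salmon library type is not given in the sources used here. The deposited table holds 55291 gene symbols with their estimated counts (Salmon's expected counts), not normalized, and 9.22% of its values are not whole. All 10 columns were matched by their names to the sample labels, and replicates are separate mice.

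Rounded counts entered edgeR 4.0.16 (R 4.3.3). Of 55291 genes, 17015 passed filterByExpr over the 4 groups. TMM normalization and 1 model of the 4 groups were used, fitted with glmQLFit (robust, the method of edgeR 4), and 5 contrasts were tested with the two-sided quasi-likelihood test, adjusted by Benjamini-Hochberg over all tested genes at 0.05. P-values in the text come from this test unless DESeq2 is named. CPM are scaled by TMM. The 10 genes and the pathway and marker lists were chosen with earlier results of these data known. Other genes are named where they were the 2 with the largest change of their pathway list, past the threshold, not overlapping between livers and averaging 100 counts or more, or as direct partners of the 10. Positions, exon lengths and shared stretches come from GENCODE vM21, and promoters from RefSeq. The level of 3 counts covers counting error only.

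Alternatives were DESeq2 size factors, scaling by library size, no filter beyond 1 count, DESeq2 1.42.0, the replicate number as a block, each liver left out in turn and, added after the data were seen, the method of edgeR 3. On simulated counts for the vehicle comparison (17015 genes, 200 changed), 71% of 2-fold and 88% of 4-fold changes were found, and 4.22% of 166 calls were not changed. The changed genes were drawn from those averaging 100 counts or more, with the spread between livers that edgeR had fitted. These shares do not cover genes with fewer counts, Tnf among them (mean 59.1 counts). The labels name no batch. The gene most like Ripk3 is not reported here.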

Additional observations from a re-analysis of the deposited data

How the results depend on the processing

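The rises of Tnf, Tnfrsf10b, Tnfrsf12a and Ripk3 in both genotypes and the fall of Tnfsf10 in sgBap1 livers kept their direction and their call under all alternatives and without each liver in turn. Of the 10 genes, 5 to 8 changed in NTC and 7 to 8 in sgBap1 livers without 1 liver. The number of the 10 called was 0 in each genotype comparison and in the interaction without any 1 liver, and DESeq2's Wald test called 2 with vehicle, 1 with CCl4 and 1 in the interaction.

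Over all genes, the vehicle comparison of the genotypes gave 69 calls, 32 with library-size scaling, 562 with DESeq2 and 0 to 150 without 1 liver. The CCl4 comparison of the genotypes gave 56, 94 without the filter, 509 with DESeq2 and 1 to 71 without 1 liver. The interaction gave 0, 2 with library-size scaling, 34 without the filter, 424 with DESeq2 and 0 to 7 without 1 liver. Of the pathway genes, the vehicle comparison gave 1, 0 with library-size scaling, 4 with DESeq2 and 0 to 1 without 1 liver. The CCl4 comparison gave 0, 2 without the filter, 11 with DESeq2 and 0 to 3 without 1 liver, and the interaction gave 5 with DESeq2. The cause was not tested.

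Deviations of same-numbered livers from their group means had correlations of -0.13 to 0.1 (13 pairs), and 4 of 10 livers were closest to their own number. The 2 livers of a vehicle group deviate by equal and opposite amounts, so the pairs are not independent. The check therefore cannot settle whether the numbers pair the livers. With the replicate number as a block the genotype comparisons gave 1 call with vehicle and 24 with CCl4 and 0 pathway genes with vehicle, 5 of the 10 genes changed after CCl4 in NTC livers (Tnfsf10, adjusted p = 0.0599, and Tnfrsf1a, adjusted p = 0.0843, were lost), and log2 fold changes after CCl4 turned to -0.01 for Tnfrsf1b and -0.03 for Ripk1 in NTC and to 0 for Ripk1 in sgBap1 livers.

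Library-size scaling moved the median of all genes after CCl4 by 0.5 in NTC and 0.52 in sgBap1 livers, and the share of calls that were higher from 50.8% to 80.5% and from 50.9% to 78.3%, and for sgBap1 against NTC with CCl4 from 60.7% to 50%. Under it Birc3 turned to 0.27, Bap1 to 0.28, Cflar to 0.06 and Nfkbia to 0.08 in NTC livers, and Cflar to 0.23 and Nfkbia to 0.34 in sgBap1 livers. The fall of Fas lost its call in both genotypes, and Casp8 gained one (0.82 and 0.81, adjusted p = 0.000133 and 0.000141). Without the filter, the interaction of Casp8 was 0.01 and Tnfrsf1a lost its call in NTC livers (adjusted p = 0.0628).

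Where leaving out a liver left a group with 1, that liver was assumed to vary like the other groups. Depth limits Tnf in vehicle livers, whose lowest value lies near the level of 3 counts. Without 1 liver, some values near 0 changed sign. After CCl4 in NTC livers, Ripk1 ranged from -0.04 to 0.04 and Tnfrsf1b from -0.02 to 0.09. After CCl4 in sgBap1 livers, Bap1 ranged from -0.04 to 0.15, Ripk1 from -0.05 to 0.12 and Tnfrsf1b from -0.08 to 0.17. Between genotypes, Ripk3 ranged from -0.06 to 0.17 and Tnfrsf1a from -0.02 to 0.04 with CCl4, and Tnfsf10 from -0.05 to 0.42 with vehicle. The interaction ranged from -0.19 to 0.17 for Casp8, from -0.12 to 0.26 for Fas and from -0.1 to 0.15 for Tnfrsf1b.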
